A study of Mus musculus with 8 samples.

Results

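Neutrophils inside mouse organ allografts were described here as the cells of graft tissue that carried neutrophil transcripts. The members were the tissue cells that held at least 3 UMIs (unique molecular identifiers, each 1 counted transcript) summed over Csf3r, Cxcr2, Mmp9, Il1r2 and G0s2, with no UMI of Csf1r, at most 2 of C1qa, C1qb and C1qc together, and at most 1 of Cd3d, Cd3e, Cd3g and Trac together. There were 356 such cells among 31804 passing tissue cells, and 47541 cells passed in the whole series, where a passing cell had at least 500 UMIs and no more than 10% of them from mitochondrial genes. The 6184 blood cells that met the same rule served as the comparison. The members were thus chosen by measured transcripts, so the levels of the 5 counted genes and of the excluded genes stand below as a description only.

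The single-cell libraries came from vascularised heart, liver and kidney grafts taken at day 7 in mice that received no immunosuppressive drug. Donors were BALB/c mice of 8 weeks and recipients C57Bl6/J mice of the same age, according to the methods of the study, while the labels give BALB/c and male for every library. Livers replaced the native organ, and hearts and kidneys were added beside the native ones. Each organ had a blood library (PBMC) and a library of tissue-infiltrating lymphocytes (TIL) that had been enriched on a density gradient after collagenase digestion, and liver and kidney also had a library of the digested graft itself (parenchymal cells, PC). A pair of recipients was used for each organ, and pooling into the 8 libraries is not stated. No naive, syngeneic or drug-treated mice enter this comparison, and the cells of a graft can be of donor or recipient origin. Each group was 1 library, so no replicate check exists and no test was run. Intervals at the 95% level are exact and cover counting error only.

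Neutrophils are short-lived granulocytes that leave the marrow with their granule proteins already made, circulate, and enter inflamed tissue through selectins, integrins and chemokine receptors. S100a8 and S100a9, the subunits of calprotectin, are among their most abundant transcripts in blood. In tissue they can transcribe interleukin-1 beta and chemokines that call in more neutrophils, and in transplantation they are known for early graft injury and for contact with macrophages and T cells.

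The library labelled heart TIL held 1056 UMIs of the hepatocyte gene Alb and 2 of the atrial myosin gene Myl7, whereas the library labelled liver TIL held 0 UMIs of Alb, 128 of Myl7 and 206 of the muscle actin gene Acta1. Liver PC held 1429, 2 and 23 UMIs of Alb, Myl7 and Acta1. The organ labels of both TIL libraries therefore go against these organ genes, and they are called by their labels throughout. Kidney androgen-regulated gene Kap was found in kidney PC (2801 UMIs) and kidney TIL (3314 UMIs) and at 0 in the other tissue libraries. Total UMIs ran from 3418722 to 19171264 per library over 10000 barcodes each. Of the gated cells, 19 of 141, 10 of 85 and 12 of 129 in liver PC and in the libraries labelled heart TIL and liver TIL had a barcode that also occurred in another library, and without all such barcodes the 33 genes followed by name below kept their direction.

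The members were unevenly spread. Liver PC gave 141 of 10000 passing cells (1.41%, interval 1.19 to 1.66), the library labelled heart TIL gave 85 of 9668 (0.879%, 0.703 to 1.09) and the library labelled liver TIL 129 of 9337 (1.38%, 1.15 to 1.64). Kidney PC gave 0 of 795, a limit of 0.377% at 3 counts and an exact interval up to 0.463%, and kidney TIL gave 1 of 2004 (0.0499%). The single kidney cell passed on 3 Mmp9 UMIs and had no UMI of S100a8 or S100a9. Graft neutrophils of the kidney were thus not detectable in a form that could be compared, and the 3 libraries with at least 20 gated cells carry all that follows. In blood the same rule passed 4370 of 7772 cells of heart PBMC (56.2%), 1723 of 6822 of liver PBMC (25.3%) and 91 of 1143 of kidney PBMC (7.96%). These are shares of cells that met the rule and not of all neutrophils. A further 911, 1041 and 52 cells of heart, liver and kidney PBMC met the exclusions with 2 UMIs of the counted genes. They too were rich in calprotectin transcripts, as given below. The TIL had passed a density gradient, on which granulocytes part from lymphocytes, PC had not, and the preparation of the blood is not given, so sample preparation and compartment cannot be told apart in these shares. The exclusion genes removed a larger share of cells in tissue than in blood. In liver PC 818 cells reached 3 UMIs of the counted genes and 82.8% of them were then lost on Csf1r, C1q or T cell receptor transcripts, and in labelled heart TIL and labelled liver TIL 74.2% and 70.8% were lost, against 18.03%, 13.9% and 18.75% in heart, liver and kidney PBMC.

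**Figure D1:**
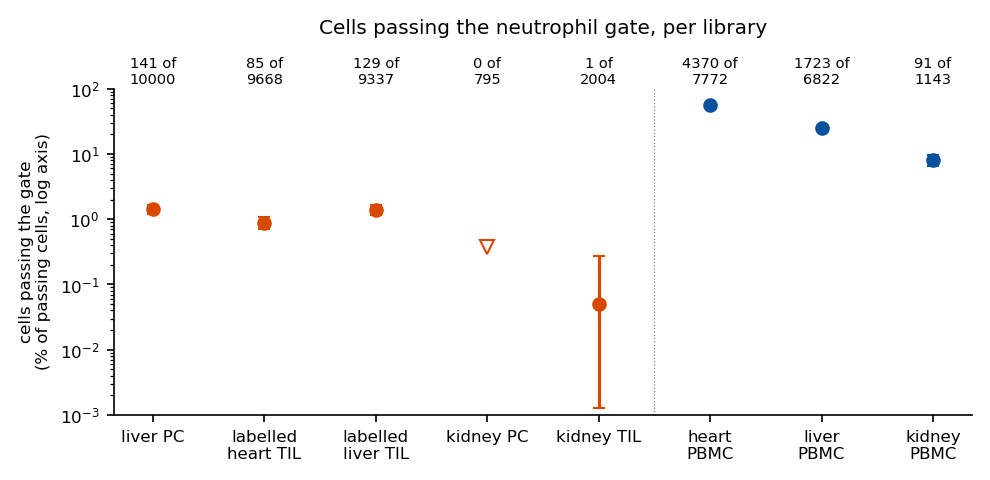
Cells that passed the neutrophil gate as a percentage of passing cells (log axis) in the 5 tissue libraries (orange) and 3 blood libraries (blue), with exact 95% binomial intervals, and the numbers of cells above. The open triangle marks the limit at 3 counts for kidney PC, where no cell passed, and not an exact interval. The 3 tissue libraries used below sit between 0.879% and 1.41%, below all 3 blood libraries.

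The name neutrophil was checked against transcripts that the rule did not use. With every cell thinned to 500 UMIs, S100a8 was found in 97.9%, 100% and 96.9% of gated cells of liver PC, labelled heart TIL and labelled liver TIL, but also in 40.5%, 61.7% and 51.7% of T cell reference cells of the same libraries with at least 2 Cd3d, Cd3e, Cd3g or Trac UMIs (none of the gate, Csf1r or C1q genes), so a single UMI did not mark a neutrophil. Its level set the cells apart from these T cells: S100a8 stood at 48813, 36731 and 23669 CPM (a gene's UMIs over all UMIs of the same cells, scaled to the usual fixed total) in gated cells and at 1213, 2343 and 1681 CPM in the T cell reference. Monocytes were not part of this check, so it does not tell the gated cells from monocytes. Ly6c2, of the macrophage and monocyte list, had a UMI in 110 of 141, 44 of 85 and 62 of 129 gated cells before thinning. Median depths were 1036, 683 and 632 UMIs in gated cells and 1315.5, 757 and 759.5 in the T cell reference before thinning. Mature-cell genes such as Retnlg, Slpi and Msrb1 were likewise higher in gated cells than in the remaining cells of each library. Other identity genes were sparse. Before thinning, Ly6g had a UMI in 19, 2 and 3 gated tissue cells and Cd177 in 10, 1 and 3. A Cxcr1 UMI was found in 0, 0 and 1. In heart PBMC the 3 genes were found in 1216, 388 and 62 of 4370 gated cells. Granule genes of the promyelocyte stage did not mark the population but a few cells. Elane, neutrophil elastase, had 53 and 91 UMIs in liver PC and in labelled heart TIL, of which 39 and 88 lay in a single cell of each, and 0 in labelled liver TIL. These 2 cells also held Mpo, Prtn3, Ctsg and Ms4a3, and neither held a Cxcl2 UMI.

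The route through the gate differed between tissue and blood. G0s2, an inhibitor of triglyceride lipase, supplied 49.7%, 59.3% and 65.0% of the gate UMIs in liver PC, labelled heart TIL and labelled liver TIL, but 2.80%, 2.52% and 19.8% in heart, liver and kidney PBMC. Csf3r, the receptor for granulocyte colony-stimulating factor, supplied 10.3%, 6.22% and 6.46% in tissue and 21.2%, 43.3% and 22.0% in blood. No UMI of Csf3r, Cxcr2 or Mmp9 was found in 29 of 141, 44 of 85 and 66 of 129 tissue members, which had therefore passed on G0s2 and Il1r2 alone. These cells had a median of 25, 24 and 14 UMIs of S100a8 plus S100a9 per 500, beside 48, 25 and 15 in members with a Csf3r, Cxcr2 or Mmp9 UMI. No monocyte level was set beside these medians, so they do not settle whether such members were neutrophils. At the edge of the rule, the 55 liver PC cells with a score of 2 had 17601 CPM of S100a9 and 1451 of Cxcl2, and the 24 with a score of 3 had 28662 and 2072. In labelled heart TIL the 64 cells just outside had 7053 CPM of S100a9 and 1097 of Cxcl2 and the 29 just inside 13551 and 3084. In labelled liver TIL the 70 just outside had 6461 and 4408 and the 47 just inside 9711 and 8449. Levels were higher just inside than just outside in each tissue library, as they were for Il1b. It had 2706 and 8219 CPM in liver PC, 2105 and 3854 in labelled heart TIL and 3704 and 6953 in labelled liver TIL. At a score of 10 or more Il1b had 17517, 11533 and 14839 CPM and Cxcl2 12710, 10252 and 11528. No break at the cut is thus shown, and tissue levels depend on it. In heart, liver and kidney PBMC S100a9 had 58253, 51187 and 63455 CPM just outside and 63885, 59862 and 92464 just inside. Cxcl2 was lower just inside in heart PBMC (92.5 beside 109) and higher in the other blood.

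Gated cells of tissue and of blood were then compared to ask what graft neutrophils transcribed that circulating ones did not. A gene counted as higher or lower when the CPM of the 3 tissue and the 3 blood libraries did not overlap and their medians differed at least 2-fold, with counts under 3 entered as 3. Genes and list members are called tested where they entered this rule with at least 100 UMIs, and no statistical test is meant. By the rule 278 of 3985 genes were higher in tissue (6.98%) and 124 were lower (3.11%). With CPM rescaled without the 20 most abundant genes and the haemoglobin, immunoglobulin and mitochondrial genes, the split was 162 higher and 222 lower, as the median of all genes moved from 0.20 to -0.02 on the log2 scale. Both counts therefore depend on the scaling. The 33 genes followed through 20 alternatives kept their direction in each, which their choice for large ratios or as gate genes made likely, and several did not meet the rule under some settings. Changes of the minimum count could not alter a ratio, and lifting the mitochondrial limit left the same gated cells. Of the higher genes, 50 of the 278 were at least as high in gated cells as in the remaining cells of every tissue library. Of the 124 lower genes, 112 were at least as high in gated cells as in the remaining cells of every blood library. Granzyme B, MHC class II, Apoe and Saa3 were among the higher genes that failed this condition. The remaining blood cells were not free of neutrophil transcripts. In heart PBMC the neutrophil identity genes outside the gate summed to 194912 CPM in them and to 250284 CPM in gated cells. Tissue was digested with collagenase and the preparation of blood is not given, so preparation and compartment cannot be told apart.

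Inflammatory chemokines and cytokines were among the genes with the largest ratios. Of 11 tested members of a chemokine and cytokine list, 7 were higher (Ccl3, Ccl4, Csf1, Cxcl10, Cxcl2, Cxcl9 and Tnf) and 1 lower (Ccl6), against 6.98% and 3.11% of all genes, with a median log2 ratio of 3.26 beside 0.20 over all genes tested. Cxcl2, a ligand of the neutrophil receptor Cxcr2 (ENSMUSG00000058427, GRCm38 chr5:90903871-90905938), had 8105 CPM in liver PC (7677 to 8551), 5780 in labelled heart TIL (5232 to 6371) and 11991 in labelled liver TIL (11296 to 12718). The 3 blood libraries had 109 (heart PBMC), 9.75 (liver PBMC) and 1045 CPM (kidney PBMC). Every tissue library was above every blood library, the lowest tissue value being 5.53 times the highest blood value, and kidney PBMC stood apart from the other blood. The log2 ratio of medians was 6.21, and it was 3.94, 3.81 and 7.09 without heart, liver and kidney PBMC in turn. Against the blood of the same organ label, Cxcl2 was 831-fold higher in liver PC, 52.8-fold in labelled heart TIL and 1230-fold in labelled liver TIL. With the organ labels of the TIL libraries exchanged the last values became 593-fold and 110-fold. Per cell, 80.1%, 82.4% and 89.1% of gated tissue cells held a Cxcl2 UMI after thinning, against 4.91%, 7.59% and 22.5% of T cell reference cells and 11.1%, 15.02% and 42.0% of macrophage and monocyte reference cells (at least 3 UMIs of Csf1r and C1q). The macrophage and monocyte reference was also limited to cells with under 3 UMIs of the gate genes and at most 1 of the T cell genes. Macrophages richer in gate transcripts were thus left out in advance.

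The bases upstream of the Cxcl2 start are shown, with those of Ccrl2 as another higher gene and S100a9 as a lower one, so that the upstream letters of higher and lower genes can be compared. Each run is the 250 bases before the RefSeq start in GRCm38.p6, 5′ to 3′ on the gene's strand, with matches on either strand to an NF-kappaB-type motif, GGG and CC with any 5 bases between them, in capitals. Overlapping matches run together. Ccrl2 has 3 entries in the table, of which the first is shown and the others hold no match.
Cxcl2, chr5:90903649-90903898, plus strand: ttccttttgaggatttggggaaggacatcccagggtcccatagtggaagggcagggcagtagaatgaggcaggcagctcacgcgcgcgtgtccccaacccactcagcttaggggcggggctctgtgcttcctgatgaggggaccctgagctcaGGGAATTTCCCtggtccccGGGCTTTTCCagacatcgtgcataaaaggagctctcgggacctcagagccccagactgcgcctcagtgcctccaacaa
Ccrl2, chr9:111057519-111057768, minus strand: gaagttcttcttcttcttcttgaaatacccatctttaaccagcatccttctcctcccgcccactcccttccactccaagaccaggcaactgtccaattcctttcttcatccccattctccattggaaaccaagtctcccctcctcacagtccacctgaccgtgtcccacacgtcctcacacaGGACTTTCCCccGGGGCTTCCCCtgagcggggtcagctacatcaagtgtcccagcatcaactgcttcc
S100a9, chr3:90695722-90695971, minus strand: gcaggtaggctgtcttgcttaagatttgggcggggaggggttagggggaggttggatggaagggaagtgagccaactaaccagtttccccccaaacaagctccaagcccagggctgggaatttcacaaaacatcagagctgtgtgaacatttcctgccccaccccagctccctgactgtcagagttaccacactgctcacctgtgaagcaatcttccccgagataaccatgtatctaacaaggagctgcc
These letters occurred in this window in 7 of the 11 higher genes named by rule that had an entry in the table and in 8 of the 11 lower genes, and 48.7% of all 27025 genes held them. The AP-1-type letters TGANTCA occurred in 2 of 11 higher and 1 of 11 lower genes, beside 7.82% of all genes. A match describes letters and not binding, and these matches were about as frequent upstream of lower as of higher genes. The genes shown are not typical in this: S100a9 was, with Retnlg and Slfn5, among the few lower genes without an NF-kappaB-type match. The higher genes Ccl3, G0s2, Nr4a1 and Ppp1r15a had none either.

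Interleukin-1 beta, the central cytokine of this axis, was already abundant in blood. Il1b (ENSMUSG00000027398, chr2:129364570-129371139) had 12336, 6819 and 9949 CPM in liver PC, labelled heart TIL and labelled liver TIL and 3683, 2771 and 4181 CPM in heart, liver and kidney PBMC. The groups did not overlap, with a 2.70-fold ratio of medians, and labelled heart TIL lay 1.85-fold above heart PBMC, short of 2-fold for that pair. With the TIL labels exchanged the ratios were 2.46-fold for labelled heart TIL and 2.70-fold for labelled liver TIL. Without the exclusion genes in the gate Il1b did not meet the rule. Its antagonist Il1rn was 2.68-fold higher by medians, with 568, 413 and 713 CPM in tissue and 276, 209 and 212 CPM in blood. The decoy receptor Il1r2, a gate gene, overlapped at 1940, 2363 and 1750 CPM in tissue and 2884, 761 and 882 in blood. Of the 9 tested members of the interleukin-1 list, Il1b and Il1rn were higher and none was lower, against 6.98% and 3.11% of all genes. Casp1, the protease that processes the cytokine, had 139, 256 and 151 CPM in tissue and 182, 176 and 147 in blood, and the signalling receptor Il1r1 had no UMI in any gated cell.

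Tnf and Ccrl2 were also higher in tissue than in blood. Tnf had 846, 456 and 205 CPM in liver PC, labelled heart TIL and labelled liver TIL and 60.3, 6.0 and 16.3 CPM in heart, liver and kidney PBMC, the last from 1 UMI. Ccrl2, a non-signalling receptor that presents chemerin, had 1934, 1623 and 2236 CPM in tissue and 177, 28.5 and 408 CPM in blood. For both genes the groups were apart, and kidney PBMC had the highest Ccrl2 of the blood libraries, as it had for Cxcl2. The log2 ratio of Ccrl2, 3.45, became 2.72 without liver PBMC and 4.23 without kidney PBMC, and that of Tnf, 3.22, became 4.05 without heart PBMC. A Ccrl2 UMI was found in 44.0%, 47.1% and 51.9% of thinned gated cells and in 2.46%, 3.06% and 5.28% of T cell reference cells.

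The CC chemokines need more care. Ccl3 and Ccl4, which attract monocytes and T cells, were 70.8-fold and 55.5-fold higher by medians. The log2 ratio of Ccl3 was 6.15 and fell to 5.41 without liver PBMC. Ccl3 had 1372, 1495 and 1534 CPM in gated tissue cells, and the T cell reference of the same libraries had 1128, 920 and 615 CPM. Ccl4 had 1390, 1780 and 2755 CPM in gated cells against 1530, 2249 and 1864 CPM in T cells. After thinning a Ccl4 UMI occurred in 34.8%, 48.2% and 48.8% of gated cells and 33.5%, 46.5% and 35.0% of T cell reference cells. T cells transcribe Ccl4 themselves, the shares in liver PC and labelled heart TIL were close to theirs, and the part of T cell RNA in the tissue level was not tested. Cxcl9 and Cxcl10, ligands of Cxcr3 on T cells, were set beside macrophages. Cxcl9 had 357, 171 and 454 CPM in gated cells and 1408, 742 and 1047 in the macrophage reference, and Cxcl10 had 677, 470 and 421 CPM beside 530, 262 and 431. Csf1, the growth factor of macrophages, rested on 11, 11 and 10 UMIs in tissue: 66.5 CPM in liver PC (33.2 to 119), 157 in labelled heart TIL (78.2 to 280) and 108 in labelled liver TIL (51.8 to 199). In labelled heart TIL 6 of the 11 UMIs lay in 1 cell. In blood Csf1 had 49.9, 63.0 and 16.3 CPM, so that the liver PC interval held the levels of heart and liver PBMC. Osm, an interleukin-6 family cytokine, had 707, 384 and 875 CPM in tissue and 41.4, 33.8 and 490 in blood, and missed the rule only through kidney PBMC. Ptgs2, the inducible prostaglandin synthase, had 35, 15 and 40 UMIs in tissue and 4, 1 and 2 in blood, but under 100 UMIs in all and so did not enter the comparison.

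**Figure D2:**
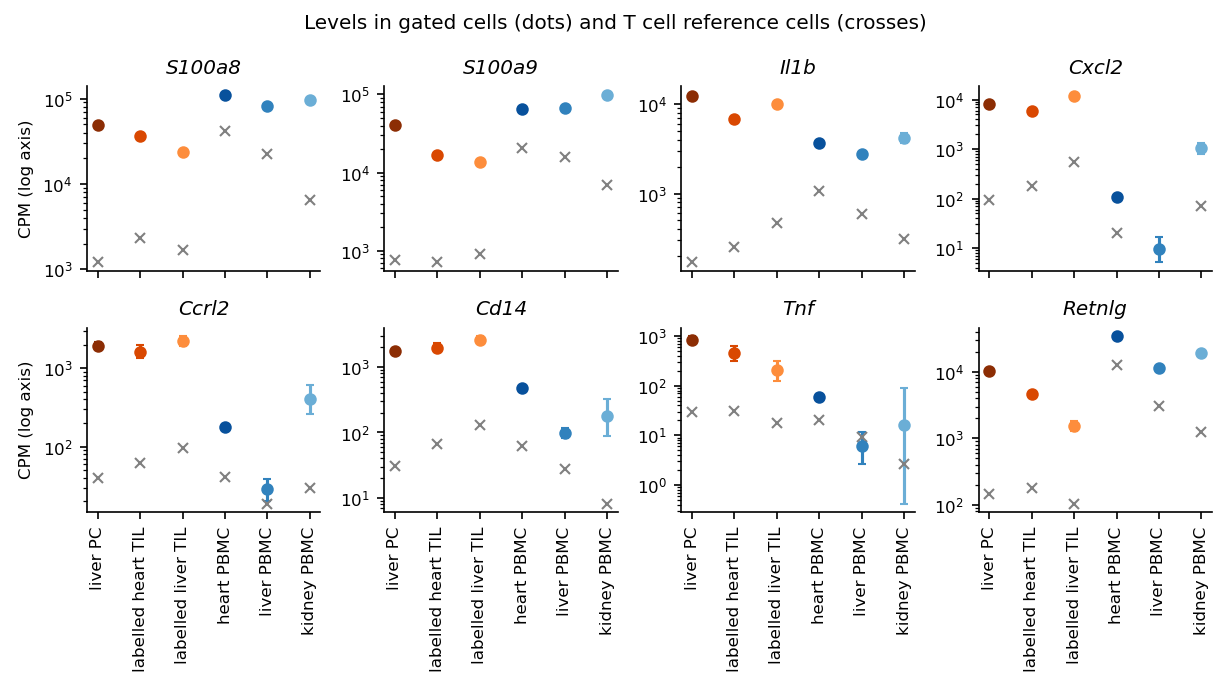
CPM (log axis) of 8 genes in gated cells (dots, with exact 95% Poisson intervals where larger than the dot) and in T cell reference cells (grey crosses) of the 3 tissue (orange) and 3 blood (blue) libraries. Cxcl2, Il1b, Ccrl2, Cd14 and Tnf lie higher in every tissue library than in every blood library, and S100a8, S100a9 and Retnlg lie lower.

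Many immediate early genes and feedback inhibitors of NF-kappaB were higher. Of 18 tested list members 11 were higher and 0 lower, against 6.98% and 3.11% of all genes, with a median log2 ratio of 1.51. Nfkbia, which holds NF-kappaB in the cytoplasm, had 4503, 4157 and 3727 CPM in liver PC, labelled heart TIL and labelled liver TIL and 1483, 450 and 1584 CPM in heart, liver and kidney PBMC. Zfp36, which speeds the decay of cytokine messages, had 3355, 3417 and 3187 CPM in tissue and 769, 868 and 1078 in blood. Tissue values of Zfp36 lay within a narrow range in all 3 libraries and more than 2-fold above each blood value. Tnfaip3, a ubiquitin-editing inhibitor of the same pathway, had 314, 199 and 281 CPM against 41.7, 8.25 and 49.0. Ier3, an early response gene, had 1390, 1082 and 2020 CPM against 426, 126 and 131. Fos, Jun, Junb, Atf3, Nfkbid and Nfkbiz made up the rest with Egr1. Egr1, a serum-induced transcription factor, had 28, 10 and 53 UMIs in tissue and 6, 5 and 0 in blood, and it did not meet the rule in most alternatives, the removal of any 1 library but kidney PBMC among them.

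Other named genes were also higher. Cd14, the lipopolysaccharide co-receptor, had 1765, 1993 and 2625 CPM in liver PC, labelled heart TIL and labelled liver TIL against 476, 99.8 and 180 CPM in heart, liver and kidney PBMC. Its log2 ratio of 3.47 became 2.60 without liver PBMC and 2.79 without kidney PBMC. A Cd14 UMI occurred in 48.2%, 43.5% and 58.1% of thinned gated cells, 1.77%, 2.93% and 5.83% of T cells and 9.97%, 11.6% and 18.9% of macrophage reference cells. Tissue was thus above blood, and the gated cells were above the macrophage reference of their own library, by share. That reference left out cells with 3 or more UMIs of the gate genes, and the part of this choice in the gap was not tested. Hcar2, a receptor for hydroxybutyrate and niacin, had 1209, 982 and 2020 CPM against 190, 117 and 98.0. Nr4a1, an orphan nuclear receptor, had 780 and 854 CPM in liver PC and labelled heart TIL, 205 in labelled liver TIL, and 61.1, 31.5 and 65.3 in blood. Sod2, the mitochondrial superoxide dismutase, was 8.69-fold higher by medians, with 749, 925 and 486 CPM in tissue and 303, 86.3 and 32.7 CPM in blood, beside 1287, 1193 and 465 CPM in the macrophage reference. Its log2 ratio of 3.12 became 2.09 without liver PBMC and 1.94 without kidney PBMC. The enzyme gene Acod1, which makes itaconate, and the lectin Clec4e were also higher, at 4.28-fold and 3.55-fold. Neither ratio was followed through the alternatives. Clec4e differed between blood libraries, with 4787 of 3647921 gated UMIs in heart PBMC and 682 of 1333187 in liver PBMC.

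A list of survival and apoptosis genes, which holds both kinds, had 5 of 9 tested members higher and 0 lower, against 6.98% and 3.11% of all genes, with a median log2 ratio of 1.52. With cells of at least 1000 UMIs, where liver PC was the 1 tissue library left, 2 of 5 were higher and the median was 0.075. Of all 1772 genes tested there, 138 were higher and 186 lower, with a median of 0.0002. Gadd45b, a stress-response gene, had 1003, 541 and 724 CPM in tissue and 246, 133 and 81.7 in blood, and the kinase gene Pim1 had 1312, 797 and 767 against 377, 251 and 196. Both were higher in gated cells than in the remaining cells of each tissue library. Bax, which promotes apoptosis, and Bcl2a1a and Bcl2a1b, the other higher members, did not meet that condition in every library. Mcl1, the main survival factor of neutrophils, had 375, 171 and 194 CPM against 251, 580 and 425, and the groups overlapped.

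**Figure D3:**
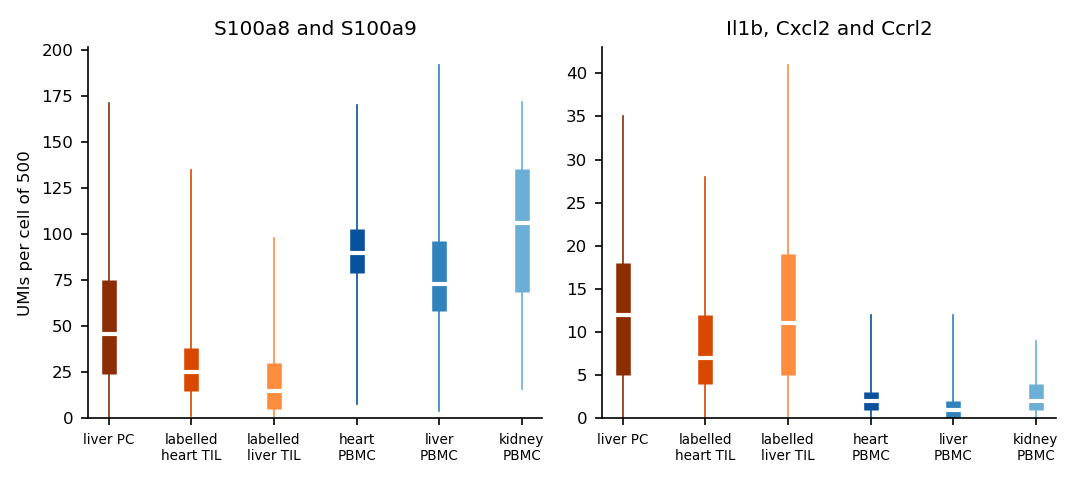
UMIs per gated cell, after thinning to 500 UMIs per cell, of S100a8 plus S100a9 (left) and of Il1b plus Cxcl2 plus Ccrl2 (right) in 3 tissue (orange) and 3 blood (blue) libraries. Thin lines span the lowest to the highest cell, thick bars the quartiles, and white marks the medians, which are 46, 25 and 15 in tissue and 90, 73 and 106 in blood on the left, and 12, 7 and 11 in tissue and 2, 1 and 2 in blood on the right.

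Most gated cells of either compartment held both sets of transcripts. After thinning, at least 1 UMI of S100a8 or S100a9 and at least 1 of Il1b, Cxcl2 or Ccrl2 were found together in 132 of 141 cells of liver PC, 76 of 85 of labelled heart TIL and 125 of 129 of labelled liver TIL. In heart, liver and kidney PBMC the same was true of 3561 of 4370, 1207 of 1723 and 79 of 91 cells, so this measure did not set tissue apart. At least 3 UMIs of Il1b, Cxcl2 and Ccrl2 were held by 85.8%, 80.0% and 89.9% of tissue members, and by 33.7%, 19.0% and 41.8% of gated cells in heart, liver and kidney PBMC. The tissue level was therefore carried by most members and not by a few.

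Several neutrophil identity genes were lower in tissue. Of 23 tested members of the neutrophil identity list outside the gate, 7 were lower (Msrb1, Pglyrp1, Pi16, Retnlg, S100a8, S100a9 and Slpi) and 3 higher (Acod1, Ccrl2 and Clec4e), against 3.11% and 6.98% of all genes, with a median log2 ratio of -0.98. With the gate on Csf3r, Cxcr2 and Mmp9 alone this list had 4 higher and 4 lower members of 24 and a median of -0.39. Of all 3947 genes tested under that gate 464 were higher and 36 lower, with a median of 1.07. S100a9 (chr3:90692632-90695721) had 40750, 16757 and 13698 CPM in liver PC, labelled heart TIL and labelled liver TIL and 65897, 66134 and 97627 CPM in heart, liver and kidney PBMC. S100a8 (chr3:90668978-90670035) had 48813, 36731 and 23669 CPM in tissue and 111633, 82727 and 97104 in blood. The groups did not overlap for either gene, but liver PC was within 2-fold of liver PBMC for both, at 1.69-fold for S100a8 and 1.62-fold for S100a9. The background was higher in blood too: T cell reference cells of heart, liver and kidney PBMC held 41418, 22482 and 6475 CPM of S100a8. Retnlg, a resistin-like secreted protein, had 10251, 4599 and 1545 CPM in tissue and 34427, 11343 and 19552 CPM in blood, with liver PC only just under liver PBMC, and it did not meet the rule under the Csf3r, Cxcr2 and Mmp9 gate or with equal weight per cell. With cells of at least 1000 UMIs, where liver PC was the 1 tissue library left with 20 cells, S100a8 and S100a9 did not meet the rule, while both log2 ratios stayed below 0. Without labelled heart TIL or without labelled liver TIL the log2 ratio of S100a9 moved from -1.98 to -1.28 and -1.20, and without labelled liver TIL that of Retnlg moved from -2.09 to -1.40.

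Few adhesion and granule genes passed the rule of size. Selplg, the selectin ligand PSGL-1, was 2.65-fold lower by medians, with 858, 555 and 432 CPM in liver PC, labelled heart TIL and labelled liver TIL and 1497, 1251 and 1470 CPM in heart, liver and kidney PBMC. The groups did not overlap. The integrin gene Itgam had 187, 171 and 140 CPM in tissue and 170, 191 and 163 in blood. Against 6.98% and 3.11% of all genes higher and lower, none of 7 specific granule genes met the rule in either direction, and among 5 gelatinase granule genes Mmp9, a gate gene, and Retnlg were lower. The receptors Csf3r and Cxcr2, both gate genes, were 2.93-fold and 3.97-fold lower by medians, and in the receptor list of 18 only Ccrl2 was higher. The formyl peptide and complement receptors Fpr1 and C5ar1 overlapped, with C5ar1 at 435, 228 and 378 CPM in tissue and 375, 324 and 278 in blood.

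Interferon-induced genes were mixed. Of 19 tested type I interferon-stimulated genes 1 was higher (Bst2) and 3 lower (Ifit3, Oasl2 and Slfn5), against 6.98% and 3.11% of all genes, with a median log2 ratio of -0.60. Isg15, a ubiquitin-like modifier, had 1040, 911 and 1232 CPM in tissue and 965, 853 and 1535 in blood, so the groups overlapped. Ifit3 had 369, 342 and 292 CPM against 929, 568 and 1094. Of 13 interferon-gamma-induced genes Cxcl9, Cxcl10 and Iigp1 were higher and none lower, with a median of 0.16 that turned to -0.11 under the alternative scaling. With cells of at least 1000 UMIs, and so liver PC alone against heart and liver PBMC, 3 of 11 were higher and 4 lower, beside 138 and 186 of all 1772 genes. In the main comparison Bst2, Cxcl9 and Iigp1 were not above the remaining cells of every tissue library.

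**Figure D4:**
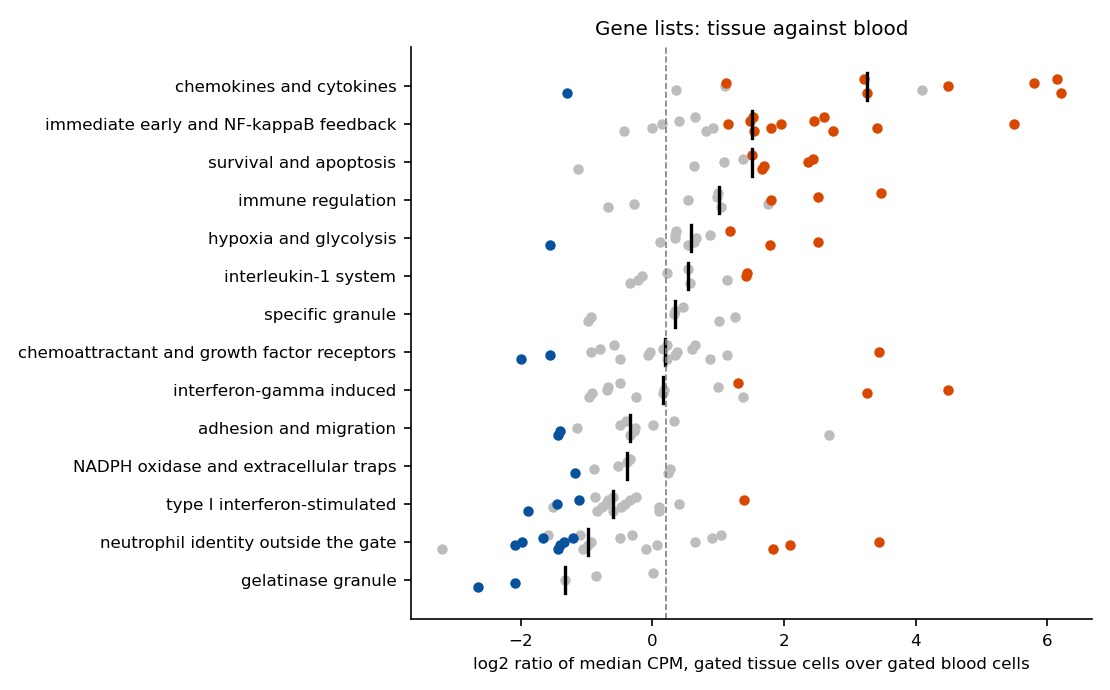
Log2 ratio of median CPM, gated tissue cells over gated blood cells, for every tested gene of 14 lists (points), with those called higher in orange, lower in blue and neither in grey. Black bars are list medians and the dashed line is the median of all genes tested, 0.20. The chemokine, immediate early and survival lists lie to the right and the gelatinase granule and identity lists to the left.

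Other genes named by rule were lower in tissue. Pygl, liver-type glycogen phosphorylase, had 345, 128 and 151 CPM in liver PC, labelled heart TIL and labelled liver TIL and 690, 554 and 1764 in heart, liver and kidney PBMC. Txnip, an inhibitor of thioredoxin and of glucose uptake, had 206, 71.2 and 130 CPM against 497, 899 and 653. Trim30b, Sorl1, Rasgrp4, Rnf167, Slc40a1, Scnn1a, R3hdm4, Slfn5 and Cd300lb ranged from a log2 ratio of -2.40 for Trim30b to -1.85 for Cd300lb, each on at most 30 UMIs per tissue library. Cd300lb had 6, 0 and 3 UMIs, Sorl1 had 6, 3 and 4, and Trim30b had 1 in labelled heart TIL. Counts under 3 were entered as 3. Of 12 tested hypoxia and glycolysis genes Ldha, Mif and Tpi1 were higher and Slc2a3, a glucose transporter, lower, against 6.98% and 3.11% of all genes, but the 3 higher genes were below the remaining cells in every tissue library.

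Pairs of libraries gave more even counts in liver PC and labelled liver TIL. Against the blood of its organ label, liver PC was at least 2-fold higher for 392 of 6902 genes (5.68%) and lower for 360 (5.22%). Labelled heart TIL was higher for 473 of 8336 (5.67%) and lower for 246 (2.95%), and labelled liver TIL higher for 361 of 6914 (5.22%) and lower for 386 (5.58%). In all, 80 of 6686 genes (1.2%) were at least 2-fold higher in all 3 tissue libraries and 48 (0.718%) at least 2-fold lower. With the organ labels of the TIL libraries exchanged the counts were 86 and 49. Liver PC and labelled liver TIL share liver PBMC as their comparison, so these pairs are not independent.

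Tissue libraries also differed among themselves. Liver PC was at least 2-fold above labelled heart TIL for 8.96% of 2177 genes and below it for 8.22%, and above labelled liver TIL for 15.2% of 2269 genes and below it for 8.95%. Labelled heart TIL was above labelled liver TIL for 13.6% of 1537 genes and below it for 12.9%. Liver PC was at least 2-fold above both TIL libraries for 71 of 2155 genes (3.29%) and below both for 24 (1.11%). Immunoglobulin genes from 1 cell headed the first set. Lcn2, lipocalin-2, had 4944 CPM in liver PC, 1623 in labelled heart TIL and 745 in labelled liver TIL. In labelled liver TIL 35 of its 69 UMIs lay in 1 cell, and 25 of 129 gated cells held a UMI. Ly6g, the surface marker of mouse neutrophils, had 163 CPM in liver PC (108 to 237) and 28.5 and 32.4 in the TIL libraries on 2 and 3 UMIs. Il1f9, an interleukin-36 cytokine, had 115, 14.2 and 10.8 CPM, from 19, 1 and 1 UMIs. Mmp9, a gate gene, had 490, 157 and 184 CPM. Parp14, H2-Q4 and Atxn10 were also in this set. Igkv3-7 and Ighm, with the largest ratios, were in the set through that liver PC cell with immunoglobulin transcripts. It held 494 of 527 Ighm UMIs and 246 of 270 Jchain UMIs of the gated liver PC cells, a plasma cell pattern inside the gate. The named genes below both TIL libraries were Polr2e, Clec4n, Cers2 and Cyth4, of which Clec4n, the lectin dectin-2, had 181, 413 and 454 CPM. Only the TIL libraries had passed a density gradient, so organ, gradient and library cannot be told apart.

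The order among the tissue libraries was not the same for every gene. Tnf and Nr4a1 were 4.12-fold and 3.80-fold higher in liver PC than in labelled liver TIL, Cxcl2 was highest in labelled liver TIL, and S100a9 was lowest there. Labelled liver TIL differed in its background too. Haemoglobin and other erythroid transcripts occurred in all 129 of its gated cells, at 62029 CPM, beside 51471 CPM in its remaining cells, and had 0 UMIs in the gated cells of liver PC and 16 in those of labelled heart TIL. Its gated cells also held 421 UMIs of stromal genes, of which 312 lay in 1 cell. The part of these transcripts in its other levels was not tested.

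**Figure D5:**
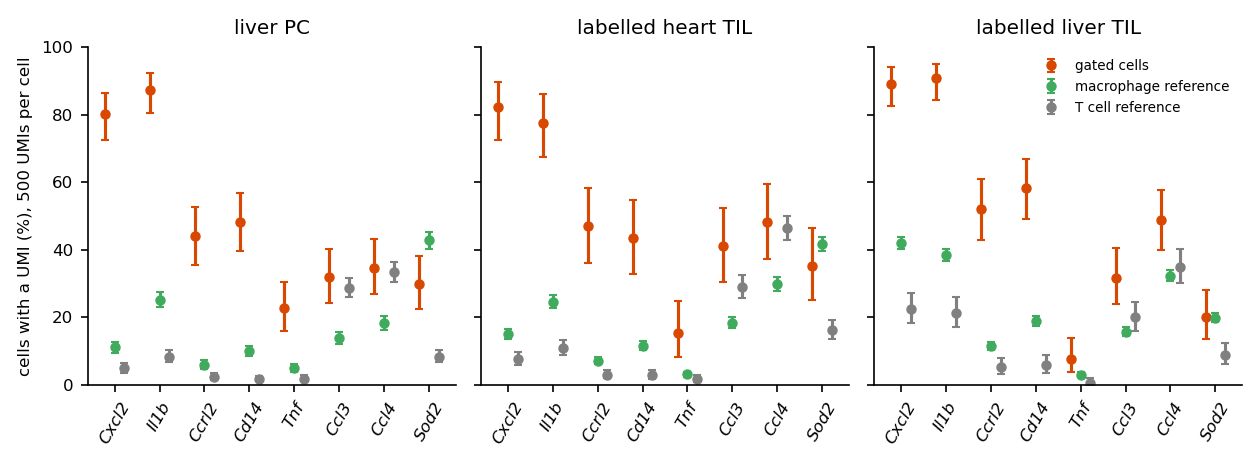
Share of cells with a UMI of 8 genes, each cell thinned to 500 UMIs, in gated cells (orange), macrophage and monocyte reference cells (green) and T cell reference cells (grey) of the 3 tissue libraries, with exact 95% binomial intervals. For Cxcl2, Il1b, Ccrl2, Cd14 and Tnf the gated cells stand above both references, for Ccl4 in liver PC and labelled heart TIL they stand near the T cells, and for Sod2 near or below the macrophages. Both references exclude cells with 3 or more UMIs of the gate genes.

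Other T cell and macrophage transcripts were counted without the genes that the rule limits. The remaining 6 genes of the T cell list summed to 2122, 2605 and 1988 CPM in gated cells of liver PC, labelled heart TIL and labelled liver TIL, below the 7065, 6683 and 4157 CPM of the remaining cells. In gated blood cells they summed to 733, 400 and 1519 CPM. The remaining 8 genes of the macrophage and monocyte list summed to 3796, 4399 and 4170 CPM in gated tissue cells, beside 4422, 4739 and 6243 CPM in the remaining cells, so the gap was small in liver PC and labelled heart TIL. Gated blood cells held 2674, 3028 and 3430 CPM of them. Other lists were higher in gated than in remaining cells of some libraries, with hepatocyte genes at 502 beside 357 CPM in liver PC and 1167 beside 693 CPM in labelled heart TIL. The tissue members held more T cell and macrophage RNA than the blood members, and its part in the tissue gain was not tested beyond the reference levels given above.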

How the data were processed

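Microwell-seq libraries of graft tissue and blood were used as the UMI counts per gene and cell barcode that the authors deposited. Per the methods of the study, read pairs with a barcode base quality under 10 were discarded, the Drop-seq tools were used, reads were aligned with STAR to GRCm38, reads with more than 1 alignment were removed, genes came from a GENCODE annotation, and UMIs 1 edit apart were merged. The submitters' processing notes also name bcl2fastq. Reads shared by near-identical gene copies were therefore lost, not split.

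The cell filter is given with the members. The gate on 5 genes is given with the members, and no doublet caller was run. UMIs of gated cells were summed per library and given as CPM with exact Poisson intervals, and shares with exact binomial intervals, at the 95% level. PCR copies had been merged by UMI, and intervals and limits for a count of 0 (3 counts) cover counting error only. Each group was 1 library, so no test was run. Libraries with at least 20 gated cells entered comparisons between tissue and blood, and counts under 3 were entered as 3. Comparisons of pairs needed at least 10 UMIs in the higher sum. Shares of cells with a UMI were taken after thinning to 500 UMIs (seed 0).

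Genes were named from the gate, the given markers and the fixed lists, and as the 15 largest ratios per direction (10 for liver PC against the TIL libraries) among genes at least as high as in the remaining cells of the libraries on the higher side, leaving out ribosomal and unnamed genes. Some genes that met these rules are not reported here. The members, markers (which include Cxcl2, Il1b, Ccrl2 and S100a9) and lists were chosen with earlier results of these data known. Alternatives changed the cell filter, the gate, the scaling, the floor and the minimum count, left out the cells above percentile 95 of UMIs, or left out 1 library. Promoters were matched by symbol to RefSeq, GRCm38.p6. Scripts were tested on simulated data. Python 3.11.15, numpy 2.4.6, scipy 1.17.1, pandas 2.3.3 and matplotlib 3.10.9 were used.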

Additional observations from a re-analysis of the deposited data

Results flagged for a closer look

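H2-Q4 and Ighm moved in opposite directions in the gated cells of different tissue libraries when each was set against the blood of its organ label, and the difference was not tested. H2-Q4, a class I histocompatibility gene, had a log2 ratio of 1.18 in liver PC, -2.15 in the library labelled heart TIL, where no UMI was found and 3 counts were entered so that the value is an upper limit, and -0.40 in the library labelled liver TIL. Ighm, the heavy chain of immunoglobulin M, had 2.23, -0.57 and -1.11, and 494 of its 527 UMIs in gated liver PC cells lay in 1 cell. The other gated cells held 33, so the higher value in liver PC rested on that cell. The TIL ratios of both genes use organ labels that the organ genes go against.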

How the results depend on the processing

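No paired analysis was run. Each group was 1 library and every library has replicate number 1, so a replicate block could not be fitted. The pairs by organ label are compared by size only. None of the 33 genes followed by name, most of them chosen for large ratios, changed direction under any of the 20 alternatives, and 592 of their log2 values moved by less than 1 SD between libraries of a compartment while 68 moved by more. The 592 include values that could not move. A changed minimum count does not enter the ratio, and without the mitochondrial limit the gated cells were the same. The counts of genes and the shares of cells depended on the settings, and the cause was not tested beyond what a setting itself removes.

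With at least 1000 UMIs per cell, liver PC, heart PBMC and liver PBMC alone kept 20 gated cells, 138 genes were higher and 186 lower in tissue, and S100a8, S100a9, Mmp9, Egr1, Ppp1r15a, R3hdm4 and Tnfaip3 did not meet the rule, and shares were 0.908%, 0.462%, 0.499%, 0.397%, 54.7%, 22.2% and 1.75% in liver PC, labelled heart TIL, labelled liver TIL, kidney TIL and heart, liver and kidney PBMC. With a gate score of at least 2, shares were 1.96%, 1.54% and 2.13% in the first 3 of these and 67.9%, 40.5% and 12.5% in blood, and 91 genes were lower in all 3 pairs. With a score of at least 5, 175 genes were higher and shares were 1.01%, 0.486%, 0.578% and 0% in the tissue libraries of that order and 31.8%, 8.56% and 3.06% in blood. With Csf3r, Cxcr2 and Mmp9 alone, 464 genes were higher and 36 lower, Cd300lb, Cxcr2, Egr1, Ppp1r15a, R3hdm4, Rasgrp4, Retnlg, Scnn1a, Slc40a1 and Sorl1 did not meet the rule, and shares were 0.900%, 0.176%, 0.289%, 48.8% and 35.4% in liver PC, labelled heart TIL, labelled liver TIL, heart PBMC and liver PBMC. Labelled heart TIL then had under 20 cells and left the comparison. Without exclusion genes, 926 genes were higher and 380 lower, 593 and 225 in all 3 pairs, Il1b did not meet the rule, and shares were 8.18%, 3.41% and 4.73% in tissue and 68.6%, 29.3% and 9.80% in blood. Thinned before the gate, shares were 2.07% in liver PC, 1.09% in labelled heart TIL, 0% in kidney TIL and 42.2%, 16.6% and 6.12% in blood.

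Equal weight per cell gave 37 genes lower in liver PC than in both TIL libraries. The alternative scaling gave 162 higher and 222 lower, with 85 lower in all 3 pairs. A floor of 1 count gave 198 lower, 113 lower in all pairs and 123 higher in liver PC than in both TIL libraries. Minimum counts of 30 and 300 gave 141 higher, 33 higher in all pairs, and 27 above and 1 below both TIL libraries for liver PC, and a minimum of 1 UMI gave 850 higher, 980 higher in all pairs and 334 below both TIL libraries for liver PC. Leaving out 1 library gave 172 (without heart PBMC) to 444 (without liver PC) higher genes and 124 to 183 lower ones. The log2 ratios of Ccl3, Cxcl10, Egr1, G0s2, Ier3, Ppp1r15a and Il1r2 also moved by over 1.5-fold without 1 blood library, as low as 5.41, 1.88, 2.68, 2.64, 2.32, 2.24 and 0.04. Few gated cells limit depth, with 61223 UMIs in those of kidney PBMC and 70240 in those of labelled heart TIL against 3647921 in heart PBMC.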
